A study of Caenorhabditis elegans with 33 samples.

Results

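Nuclear hormone receptors are transcription factors that bind DNA through a zinc finger domain and, in many cases, a small lipophilic ligand through a second domain. The members described here were the genes whose WormBase symbol is nhr followed by a number, taken from the annotation of the C. elegans genome build WBcel235. Only nhr-23 and nhr-25, the receptors of the moulting cycle, were set aside by the rule. The rule found 267 members among the 21975 genes of the expression table, 22 on the X chromosome and 245 on autosomes. Their levels were followed across 11 conditions, with X-linked members set against autosomal members.

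The nematode family is far larger than that of insects or vertebrates, mainly because relatives of the receptor HNF4 were duplicated many times. Several members regulate intestinal metabolism. NHR-49 and NHR-80 act on fatty acid desaturation and oxidation, NHR-10 and NHR-68 act on the propionate shunt, and NHR-114 acts on the methionine cycle. NHR-8 takes part in sterol handling and defence against foreign compounds. A smaller group with counterparts in other animals acts in development, such as NHR-67, a relative of Tailless, and NHR-85, a relative of Rev-Erb. No function is known for many of the others. Dosage compensation acts across the X chromosomes in somatic cells of hermaphrodites through a condensin complex that contains DPY-27. A receptor gene on X can therefore be subject to it whatever its role.

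Poly(A) RNA was measured in whole hermaphrodite larvae of the third stage (L3), with 3 libraries for each of the 11 conditions and 33 libraries in all. The 7 strains were WT (the Bristol N2 strain), cec-4, dpy-21, dpy-21; cec-4, dpy-27::AID, TIR-1; dpy-27::AID and TIR-1; dpy-27::AID; cec-4. The study describes the mutations and the tag as follows. The cec-4 strains carry a loss-of-function mutation in the gene for the protein that anchors H3K9-methylated chromatin at the nuclear periphery. The dpy-21 strains carry a null allele of the gene for the histone H4K20 demethylase of the dosage compensation complex. The AID strains carry an auxin-inducible degron on the endogenous DPY-27 protein. TIR-1 in the strain names is the plant F-box protein, expressed from the eft-3 promoter, which marks degron-tagged proteins for destruction when auxin is present, and not the worm gene tir-1. The cec-4 strain and all 3 AID strains were sampled after 24 hours on plates with 4 mM auxin and on plates without it, whereas WT, dpy-21 and dpy-21; cec-4 were sampled without auxin only. Each strain is a single line, and no source says that the 3 libraries of a condition came from separate cultures, so the p-values below measure the spread between these libraries, which may be partly technical. In whole larvae, fewer cells of a type and less RNA per cell cannot be told apart.

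Receptor genes were placed unevenly on the chromosomes. Chromosome V held 167 of the 267 members, which is 62.5% of the family, against 24.9% of all listed protein-coding genes. Chromosome IV held 33, I held 22, II held 15 and III held 8. The 22 X-linked members made up 8.24% of the family, against 13.7% of protein-coding genes on X. Members also lay next to each other. With neighbours counted where the gap was under 10 kb, 159 members fell into 44 chains, and 30 of those chains, with 122 members, were on V. The longest chain, on V from 451451 to 497297, held 12 members in the order nhr-123, nhr-98, nhr-203, nhr-202, nhr-201, nhr-99, nhr-55, nhr-130, nhr-212, nhr-211, nhr-106 and nhr-131. Their mean levels over the 33 libraries ran from 0.0622 to 15.7 FPKM (fragments per kilobase of transcript, scaled to the size of the library), so neighbours were not read out at a common level. Near neighbours can share sequence, and reads that match more than 1 member may have been split between them.

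A mean of at least 1 FPKM over the 33 libraries was required for testing, and 177 members (66.3%) reached it, 15 on X and 162 on autosomes. Among all listed protein-coding genes the share was 65.0%. On chromosome IV 84.8% of members reached it, on X 68.2% and on the autosomes together 66.1%. Of the 90 members below that level, 7 were X-linked (nhr-26, nhr-27, nhr-71, nhr-214, nhr-255, nhr-272 and nhr-281, named after their values were seen). The highest of the 90 had a mean of 0.956 FPKM, and 15 members were listed at 0 in every library. Autosomal members with a neighbour within 10 kb and those without were alike in this respect, with 64.1% of 153 and 69.6% of 92 tested and median levels of 3.36 and 3.77 FPKM.

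The X-linked members were expressed at higher levels than the autosomal members. The median of the mean FPKM was 16.6 over the 22 X-linked members and 3.39 over the 245 autosomal members, with 3.27 on V and 5.78 on IV. A mean of at least 10 FPKM was reached by 12 of 22 X-linked members (54.5%) and by 50 of 245 autosomal members (20.4%). The same level was reached by 44.3% of X-linked and 39.1% of autosomal protein-coding genes, so the larger gap between the chromosomes was within the family. X-linked genes made up 11 of the 30 receptors with the highest means and 3 of the highest 10. These shares are descriptions of the annotated members, which are not replicates of anything.

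**Figure D1:**
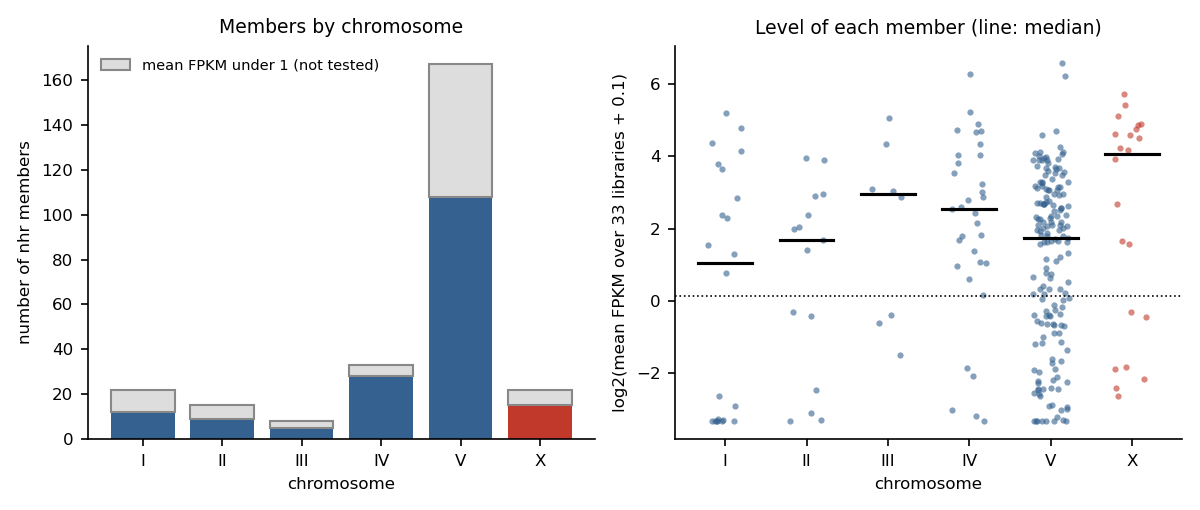
Left, number of nhr members on each chromosome, with members under a mean of 1 FPKM in grey. Right, log2 of (mean FPKM over 33 libraries + 0.1) for each member, with the median of each chromosome as a line and 1 FPKM as a dotted line. V holds 167 of the 267 members, and the X-linked members, in red, have the highest median, 16.6 FPKM.

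The 10 most abundant receptors included 3 X-linked genes. The propionate shunt regulator nhr-68 (V 11573440 to 11575709) had the highest mean, 95.2 FPKM. It was followed by nhr-31, required for growth of the excretory canal (IV 8022655 to 8029513, 77.3 FPKM), and by the methionine cycle regulator nhr-114 (V 4187202 to 4190008, 74.9 FPKM). X-linked nhr-3 came next with 53.2 FPKM, then X-linked nhr-45, a regulator of detoxification genes under mitochondrial stress, with 42.5 FPKM. The list closed with nhr-138 (37.5 FPKM), the HNF4 relative nhr-69 (36.9 FPKM), X-linked nhr-40, which acts in muscle development (34.3 FPKM), nhr-10 (33.5 FPKM) and nhr-8 (29.7 FPKM).

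Some well known members could not be followed from these values. The lipid regulator nhr-49, annotated with 7 transcripts, was listed at 0 in 28 libraries, yet at 20.0 FPKM in WT replicate 3 and at 22.9 and 22.3 FPKM in 2 of the cec-4 libraries without auxin. Likewise nhr-66 was at 0 in 17 libraries, nhr-64 in 20 and nhr-80 in 13. Such values went with the number of annotated transcripts. A value of 0 in at least 1 library was found for 13 of the 99 tested members with 1 transcript (13.1%), for 31 of the 55 with 2 or 3 transcripts (56.4%) and for 18 of the 23 with 4 or more (78.3%). Among members with a mean of at least 5 FPKM the counts were 2 of 66 with 1 transcript and 8 of 13 with 4 or more. A gene listed at 0 is therefore not reported as unexpressed here. The 115 members above 0 in every library, 11 of them X-linked, are also described apart. Counts, medians and scores over the tested members include those listed at 0.

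Libraries differed in ways that bear on all receptors. Sequencing depth, estimated from the smallest FPKM steps, was 18.0 to 29.996 M fragments (median 22.8 M), so 1 fragment on a transcript of 1500 bases was worth 0.0305 to 0.0603 FPKM. The members together made up 0.0504% of the summed FPKM in WT replicate 1 and 0.0744% in WT replicate 2, but 0.160% in WT replicate 3 and 0.107% to 0.161% in the other 30 libraries. The total over all genes was 2.55e+06 and 2.02e+06 FPKM in WT replicates 1 and 2, and 1.41e+06 to 1.67e+06 in the other libraries. The members summed to 1289 and 1504 FPKM in those 2 and to 1780 to 2354 in the others. The low shares thus hold both a lower members' sum and a larger total. Of the dpy-27::AID libraries with auxin, replicate 3 stood apart from the others in the level of X-linked genes. Calls and medians that changed without one of these libraries are given with the comparison or the gene. The mRNA of cec-4 was 18.1, 5.34 and 19.6 FPKM in WT and 0 in all cec-4 and dpy-21; cec-4 libraries without auxin, but it was also 0 in 1 dpy-21 library and 5.24 in 1 cec-4 library with auxin, so it does not check every label. The dpy-21 and dpy-27 transcripts ran from 15.8 to 34.9 and from 20.2 to 37.3 FPKM over all conditions; the degron acts on the DPY-27 protein. Summed markers of intestine were 1355 to 2913 FPKM, those of germline 50.8 to 237 FPKM, and those of sperm and males 0 to 3.0 FPKM apart from 19.8 in cec-4 replicate 1 without auxin.

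X-linked receptors were higher than autosomal receptors, relative to their own average, in the conditions that lacked DPY-21 or had auxin with the TIR-1 transgene. For each library a score was formed from log2(FPKM + 0.1), centred for every gene on its mean over the 33 libraries, as the median of the 15 X-linked members minus the median of the 162 autosomal members. The scores were 0.36, 0.24 and 0.48 in dpy-21, 0.39, 0.29 and 0.09 in dpy-21; cec-4, 0.36, 0.39 and 0.33 in TIR-1; dpy-27::AID with auxin and 0.48, 0.44 and 0.57 in TIR-1; dpy-27::AID; cec-4 with auxin. All 12 of these libraries were above 0. The scores were -0.07, -0.36 and -0.53 in WT, -0.55, -0.26 and -0.33 in cec-4, -0.43, -0.33 and -0.51 in cec-4 with auxin and -0.29, -0.26 and -0.48 in TIR-1; dpy-27::AID; cec-4 without auxin. All 12 of these were below 0.

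The remaining conditions lay between. The scores were -0.22, 0.08 and -0.01 in TIR-1; dpy-27::AID without auxin and -0.23, -0.40 and 0.03 in dpy-27::AID without auxin. With auxin, the dpy-27::AID strain, which lacks TIR-1, gave -0.41, -0.60 and 0.42, and its mean of -0.20 ± 0.55 (SD, n = 3) had the widest spread of the 11 conditions. Replicate 3 was the high library, and it also stood apart when the score was formed over all genes tested, where it reached 0.43. Condition means over the members and over all tested genes were 0.50 and 0.58 in TIR-1; dpy-27::AID; cec-4 with auxin, 0.36 and 0.44 in TIR-1; dpy-27::AID with auxin, 0.36 and 0.26 in dpy-21, 0.26 and 0.37 in dpy-21; cec-4, and -0.32 and -0.40 in WT. These scores are descriptions without a test.

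**Figure D2:**
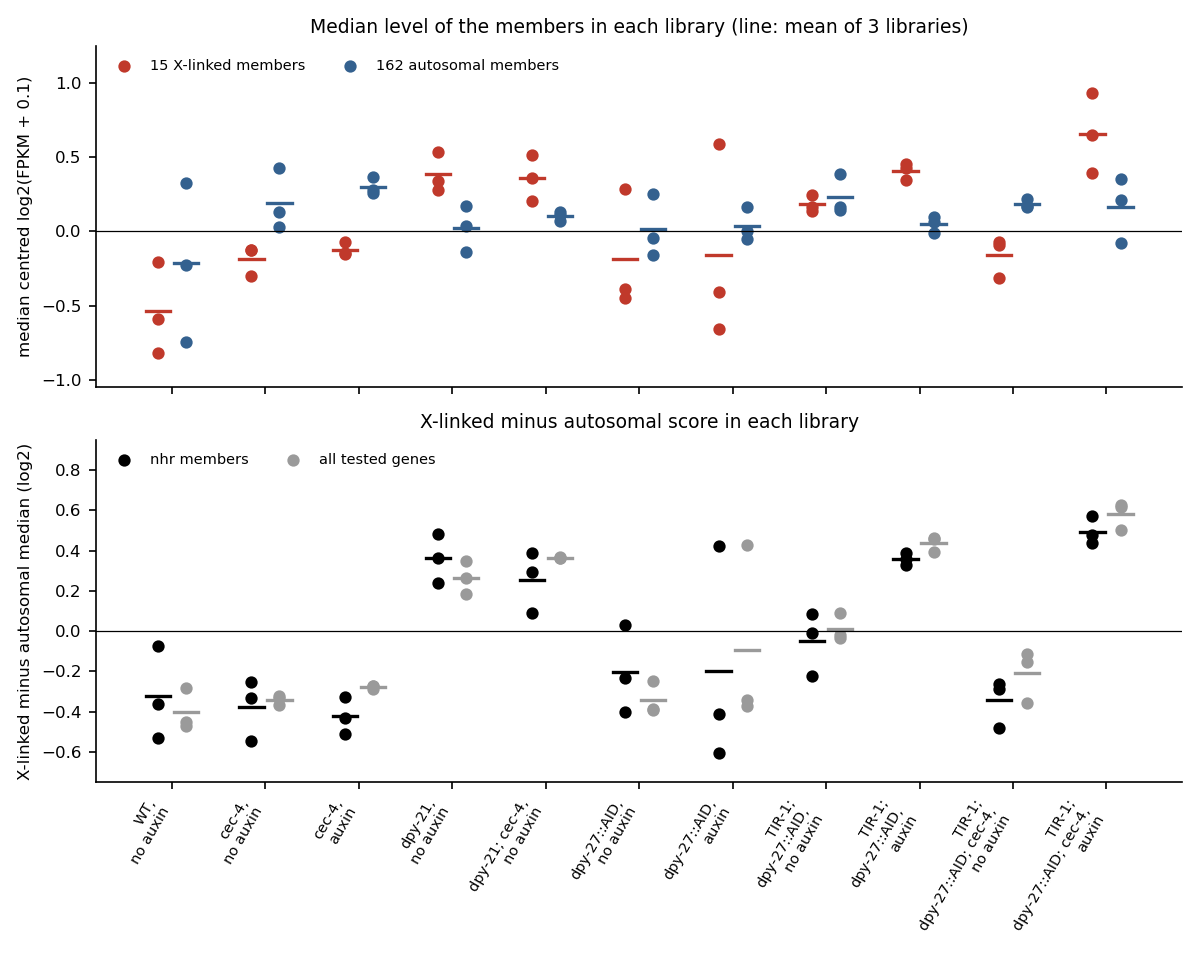
Top, median log2(FPKM + 0.1), centred per gene over the 33 libraries, of 15 X-linked (red) and 162 autosomal (blue) members in each library, with condition means as lines. Bottom, the X-linked minus autosomal score of the members (black) and of all tested genes (grey). The 12 libraries of dpy-21, dpy-21; cec-4 and the auxin-treated TIR-1 strains lie above 0, and dpy-27::AID replicate 3 with auxin stands apart from its condition.

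Over the 14 comparisons, 14 receptors passed the test in 17 cases, 4 of them X-linked and 10 autosomal. The test was limma on log2(FPKM + 0.1) with Benjamini-Hochberg adjustment over all 13309 genes tested and a threshold of 0.05. The cases fell in 5 comparisons, and the groups of libraries did not overlap in any of the 17. Called members were 0.565% to 3.95% of those tested in these 5, and in each the share of all genes was higher (1.31% to 6.4%). Among tested X-linked members, 6.67% were called higher in dpy-21 and in dpy-21; cec-4 against WT (9.32% and 12.4% of X-linked genes). With auxin in TIR-1; dpy-27::AID; cec-4 that share was 20% (14.8% of X-linked genes). All 5 X-linked cases were higher in larvae that lacked DPY-21 or were treated with auxin in the presence of TIR-1, and the autosomal cases went both ways. Comparisons that use the same libraries, WT above all, are not independent of each other. In this fit the estimate of spread was shared by all conditions. When only the conditions compared were fitted, 3 of the 17 cases were kept. They were nhr-3, nhr-35 and nhr-45 with auxin in TIR-1; dpy-27::AID; cec-4.

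In dpy-21 against WT, 3 members passed the test (3.66% of all genes tested did), all of them higher. They were X-linked nhr-28 and autosomal nhr-126 and nhr-41. All 15 tested X-linked members had a fold change above 0 (82.3% of all X-linked genes tested), and their median log2 fold change was 0.85, or 1.80-fold, beside 0.66, or 1.58-fold, over all X-linked genes. The median of the autosomal members was 0.22, beside 0.00 over all autosomal genes. The X-linked minus autosomal difference was thus 0.630 over the members and 0.657 over all genes. Libraries did not overlap, with dpy-21 higher, for 7 of the 15 X-linked members (30.6% of X-linked genes tested), which were nhr-3, nhr-17, nhr-28, nhr-40, nhr-45, nhr-91 and nhr-120. Among autosomal members 6 were higher and 7 lower without overlap (7.72% and 8.69% of autosomal genes). Summed markers of the moult were 1671 to 2360 FPKM in WT and 2783 to 3916 in dpy-21, and those of the hypodermis 398 to 729 and 781 to 1214, both higher in dpy-21 without overlap. Neuronal markers were 721 to 1076 FPKM in WT and 635 to 686 in dpy-21. The hypodermis list shares dpy-7 and rol-6 with the moult list, so the sums of these lists are not separate readings. Of its other genes, elt-3 was at 0 in 27 libraries and lin-26 had a median of 11.6 FPKM. X-linked genes of the moult list are nas-37, dpy-3, dpy-7, dpy-8 and ptr-4. The part of these tissues, of larval phase or of X linkage of markers in these values was not tested.

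In dpy-21; cec-4 against WT, 3 members passed the test (4.3% of all genes tested did), again all higher, and they were nhr-28, nhr-202 and nhr-251. The X-linked members had a median log2 fold change of 0.83, or 1.78-fold, beside 0.73, or 1.66-fold, over all X-linked genes. Of the 15 members, 14 were above 0 (83.6% of X-linked genes). The autosomal members had a median of 0.30, beside -0.03 over all autosomal genes, so the X-linked minus autosomal difference was 0.525 over the members and 0.760 over all genes. Without overlap, 5 of 15 were higher (36.4% of X-linked genes). Against cec-4, the strain that shares its cec-4 mutation, 0 members passed the test by limma (1.56% of all genes did), and 24 had an unadjusted p under 0.05. Leaving out dpy-27::AID replicate 3 with auxin, a library of neither group that enters the shared estimate of spread, brought the members called to 4 in dpy-21 against WT (4.66% of all genes), to 7 in dpy-21; cec-4 against WT (5.3%) and to 2 against cec-4 (2.34%). The members that were added were X-linked nhr-45 in both comparisons with WT, X-linked nhr-17 in dpy-21; cec-4 against both WT and cec-4, and the autosomal genes nhr-203 (1.36, adjusted p = 0.0381 by limma) and nhr-97 (-2.94, 0.0314) against WT and nhr-65 (4.64, 0.0309) against cec-4. These 3 autosomal genes were named after their values were seen. The median of X-linked members was 0.61 there, the same as over all X-linked genes, and 7 of 15 were higher without overlap (37% of X-linked genes). Against dpy-21, adding the cec-4 mutation gave 0 members and 0% of all genes by limma, with 8 members at an unadjusted p under 0.05. The X-linked members had a median of -0.03 in that comparison, with 6 of 15 above 0 (56.9% of X-linked genes).

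After DPY-27 depletion in a cec-4 background, 7 members passed the test. In TIR-1; dpy-27::AID; cec-4 with auxin against the same strain without it, 6.4% of all genes passed. Of the 7 members, 3 were X-linked and higher (nhr-3, nhr-35 and nhr-45, beside 14.8% of X-linked genes higher) and 4 were autosomal and lower (nhr-105, nhr-113, nhr-132 and nhr-245, beside 3.8% of autosomal genes lower). The X-linked members had a median log2 fold change of 0.71, or 1.63-fold, beside 0.67, or 1.59-fold, over all X-linked genes. Of the 15 members, 14 were above 0 (78.4% of X-linked genes). The autosomal members had a median of -0.13, equal to that of all autosomal genes. Without overlap, 6 of 15 X-linked members were higher (44.5% of X-linked genes).

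In the strain with functional cec-4, TIR-1; dpy-27::AID, auxin gave 0 members by limma (0.413% of all genes) and 18 with an unadjusted p under 0.05. The median of the X-linked members was 0.37, or 1.29-fold, beside 0.34 over all X-linked genes. Of the 15 members, 10 were above 0 (70.6% of X-linked genes). Without overlap, 5 of 15 were higher (25.8% of X-linked genes) and nhr-173 was lower (3.2%). Untreated larvae of this strain had, against WT, an X-linked member median of 0.69 beside 0.45 over all X-linked genes, and an autosomal member median of 0.49 beside 0.03 over all autosomal genes. The X-linked minus autosomal difference was 0.195 over the members and 0.413 over all genes, and without WT replicate 1 the median of the X-linked members was 0.40. In that comparison, 0 members passed by limma (0.293% of all genes did) and 19 had an unadjusted p under 0.05.

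When TIR-1; dpy-27::AID with auxin was set against dpy-27::AID with auxin, which differs from it in the TIR-1 transgene, autosomal nhr-155 passed the test (1.31% of all genes did). The X-linked members had a median of 0.60, or 1.51-fold, beside 0.46, or 1.38-fold, over all X-linked genes. Of the 15 members, 13 were above 0 (75.8% of X-linked genes) and 3 were higher without overlap (23.6%). Without dpy-27::AID replicate 3 with auxin, 3 members passed (2.28% of all genes), nhr-17 (log2 fold change 1.19, adjusted p = 0.0363 by limma) and nhr-45 (0.99, adjusted p = 0.027) joining nhr-155. The median of the X-linked members was then 0.92.

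Whether loss of cec-4 changed the level of receptors after DPY-27 depletion was read from both auxin-treated TIR-1 strains. In TIR-1; dpy-27::AID; cec-4 against TIR-1; dpy-27::AID, 3 autosomal members passed the test (2.28% of all genes did), nhr-8 higher and nhr-132 and nhr-245 lower. X-linked members had a median of 0.26 beside 0.11 over all X-linked genes. Of the 15 members, 9 were above 0 (57.7% of X-linked genes) and 0 were higher without overlap (16.5%). Autosomal members had a median of 0.14 beside -0.02 over all autosomal genes. The X-linked minus autosomal difference was thus alike, 0.122 over the members and 0.125 over all genes. The response to auxin itself was compared between the strains as an interaction. By limma 0 members passed it (1.44% of all genes did), with 22 at an unadjusted p under 0.05. The smallest adjusted p values were 0.0797 for nhr-155 (-4.82), 0.0868 for nhr-31 (0.90) and 0.102 for nhr-245 (-5.46). The interaction of dpy-21 with cec-4 likewise gave 0 members by limma (0.0526% of all genes), with 13 at an unadjusted p under 0.05.

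The remaining comparisons, on loss of cec-4 alone, auxin without TIR-1 and untreated strains with the degron, gave 0 members each by limma. They were cec-4 against WT (0.195% of all genes called, 23 members at an unadjusted p under 0.05), cec-4 with auxin against none (0.00751%, 6 members), dpy-27::AID with auxin against none (0%, 7 members), dpy-27::AID against WT (0.586%, 18 members) and TIR-1; dpy-27::AID; cec-4 against WT, all without auxin (1.73%, 16 members). Medians of the X-linked members in these ran from 0.07 in cec-4 against WT to 0.35 in TIR-1; dpy-27::AID; cec-4 against WT. With auxin against none in dpy-27::AID the median was 0.17, and it was -0.19 without treated replicate 3. The X-linked minus autosomal difference of that comparison was 0.167 with all libraries and -0.240 without that one. In the comparisons with WT the medians of the autosomal members were 0.27, 0.19 and 0.30, while those of all autosomal genes were 0.03, 0.03 and 0.07, and the low sums of members in WT replicates 1 and 2 moved with this. Medians without both libraries are given below for dpy-21 and dpy-21; cec-4 against WT, and why these libraries were low was not tested.

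**Figure D3:**
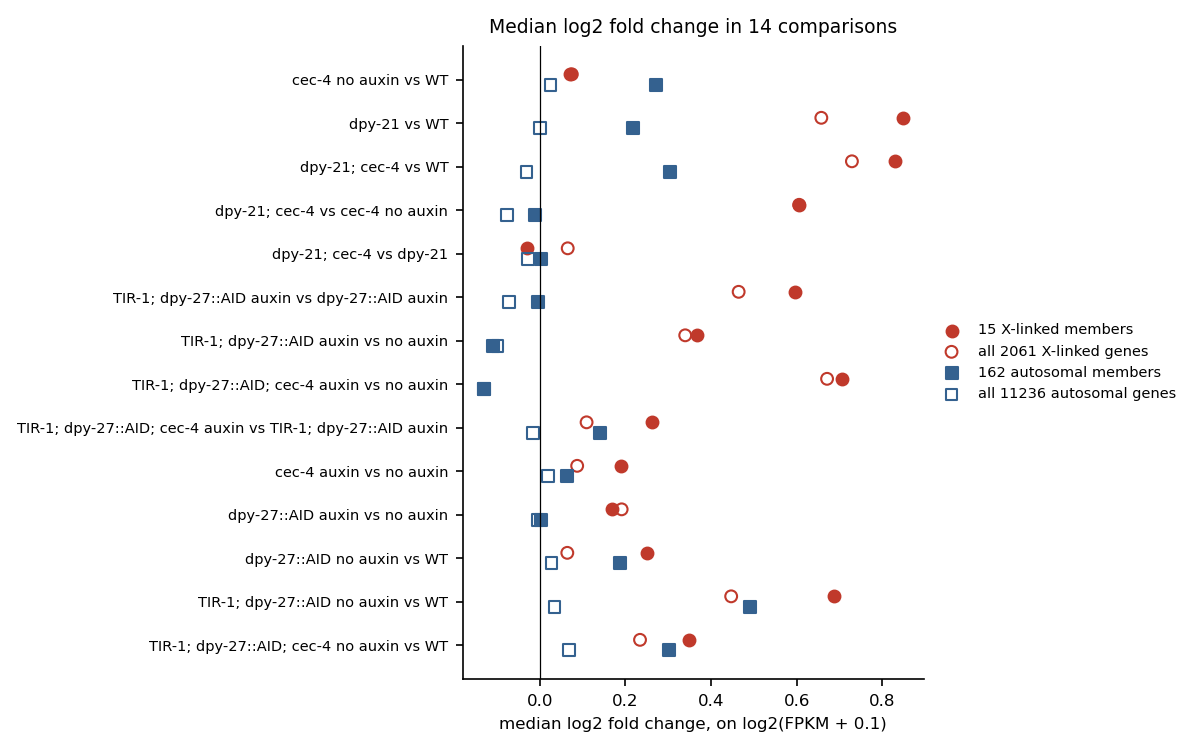
Median log2 fold change of nhr members (filled) and of all tested genes (open) on X (circles) and autosomes (squares) in each of the 14 comparisons. The X-linked members are highest in dpy-21 against WT, 0.85, and dpy-21; cec-4 against WT, 0.83, and an open marker is hidden where it equals the filled one.

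The calls in comparisons with WT turned on single WT libraries. Without WT replicate 1, 0 members passed in dpy-21 or in dpy-21; cec-4 against WT. Without WT replicate 3, 14 and 16 members passed in these (12.3% and 13.04% of all genes), and between 9 and 12 in the other 4 comparisons with WT (7.11% to 10.9% of all genes, beside 5.08% to 6.78% of the members). Among the members called in all 6 comparisons without WT replicate 3 was the methionine cycle regulator nhr-114, with log2 fold changes of 1.5996 to 2.256. The other 3 were nhr-11, nhr-150 and nhr-202, of which the first and the second were named after their values were seen. With WT replicates 1 and 2 both left out, dpy-21 against WT had 1 member (2.33% of all genes) and dpy-21; cec-4 against WT had 0 (2.04%), and the medians of the autosomal members in these were -0.33 and -0.35. The X-linked minus autosomal difference was then 0.870 in dpy-21 and 0.721 in dpy-21; cec-4, against 0.630 and 0.525 with all libraries.

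The 11 X-linked members with a value above 0 in every library were nhr-3, nhr-14, nhr-17, nhr-28, nhr-32, nhr-35, nhr-40, nhr-45, nhr-120, nhr-137 and nhr-173. All 11 had fold changes above 0 in dpy-21 against WT (log2 0.36 to 1.23), in dpy-21; cec-4 against WT (0.33 to 1.30), in dpy-21; cec-4 against cec-4 (0.13 to 1.18) and in TIR-1; dpy-27::AID; cec-4 with auxin against none (0.17 to 1.55). In TIR-1; dpy-27::AID with auxin against none, 7 of the 11 were above 0 (-0.30 to 0.77). Of all X-linked genes tested, 82.3%, 83.6%, 80.8%, 78.4% and 70.6% were above 0 in these comparisons, in that order. The highest of the 11 condition means was in TIR-1; dpy-27::AID; cec-4 with auxin for 7 of them, in dpy-21; cec-4 for 3 and in TIR-1; dpy-27::AID with auxin for 1. Of the 104 autosomal members above 0 in every library, 21 had their highest mean in TIR-1; dpy-27::AID; cec-4 with auxin. X-linked members spread as far over conditions as autosomal ones, with a median ratio of 2.31 between the highest and the lowest condition mean against 2.17. They varied less between libraries of a condition, with a median SD of 0.41 against 0.62 on the log2 scale. X-linked members were also more abundant, with a median of the mean FPKM of 24.0 against 6.35 over all tested members. The part of level in the smaller SD was not tested.

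The receptor nhr-28 (X 16354976 to 16359650) rose in both dpy-21 strains. Its level was 10.2, 14.4 and 17.9 FPKM in WT, 35.1, 29.9 and 32.6 in dpy-21 and 31.4, 32.04 and 39.4 in dpy-21; cec-4. Every dpy-21 library was above every WT library. The log2 fold change from WT was 1.23 ± 0.28 (SE) in dpy-21 (adjusted p = 0.0162 by limma) and 1.30 ± 0.28 in dpy-21; cec-4 (adjusted p = 0.0117). In cec-4 without auxin it was 20.3, 21.2 and 20.2 FPKM, also above WT without overlap, and nhr-28 was the only X-linked member of which that was so (6.55% of X-linked genes). The call in dpy-21 was lost without WT replicate 1 (adjusted p = 0.104) or without any of the dpy-21 libraries (0.055 to 0.0596). That in dpy-21; cec-4 was lost without WT replicate 1 (0.0746) or its own replicate 3 (0.0596). Both calls were also lost when only the libraries compared were fitted (0.193 and 0.165).

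Auxin raised the most abundant X-linked receptor, nhr-3 (X 14558504 to 14561432), in TIR-1; dpy-27::AID; cec-4. It measured 25.1, 26.7 and 47.7 FPKM without auxin and 78.4, 79.0 and 95.7 with it. The treated libraries were the 3 highest of that strain. On the log2 scale the gene rose by 1.401 ± 0.29 (SE, adjusted p = 0.00538 by limma), and this was the only case among X-linked members that passed with any 1 of the 33 libraries left out and under every other setting tried. Levels in TIR-1; dpy-27::AID were 75.2, 30.2 and 29.1 FPKM without auxin and 79.5, 67.3 and 60.9 with it, which overlap (log2 0.77, not called). In dpy-21 it was 72.6, 58.3 and 68.6 FPKM, above the 39.5, 28.4 and 49.3 of WT but not called.

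The mitochondrial stress receptor nhr-45 (X 4656433 to 4660318) rose with auxin in the same strain. It was 35.5, 29.8 and 26.9 FPKM without auxin and 54.2, 76.8 and 63.8 with it, with no overlap. The log2 fold change was 1.07 ± 0.25 (SE, adjusted p = 0.0119 by limma), and the call was lost without untreated replicate 3 (0.0598) or treated replicate 2 (0.0579). With functional cec-4 it was 34.7, 32.3 and 34.7 FPKM without auxin and 48.4, 53.0 and 59.8 with it, also without overlap (log2 0.66, not called). In dpy-21 it was 59.6, 60.8 and 50.2 FPKM against 22.9, 26.9 and 48.7 in WT, and in dpy-21; cec-4 it was 52.3, 51.9 and 62.1. Neither passed the test, at adjusted p = 0.0511 and 0.0561 by limma, and both passed where the minimum mean was 5 FPKM (0.0427 and 0.0483) and without dpy-27::AID replicate 3 with auxin (0.02002 and 0.0231).

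The third X-linked member raised by auxin in TIR-1; dpy-27::AID; cec-4 was nhr-35 (X 4532691 to 4537546). It was 13.2, 20.3 and 22.9 FPKM without auxin and 56.0, 49.1 and 57.3 with it, without overlap. The log2 fold change of 1.55 ± 0.40 (SE, adjusted p = 0.0209 by limma) was the largest of the 11 X-linked members above 0 in every library. The call was lost without untreated replicates 1 (0.102) or 2 (0.0514) and without treated replicates 1 (0.0541) or 3 (0.06). In WT nhr-35 was spread between 13.98 and 41.6 FPKM, and its libraries overlapped those of dpy-21 at 32.5, 31.7 and 32.96 FPKM.

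**Figure D4:**
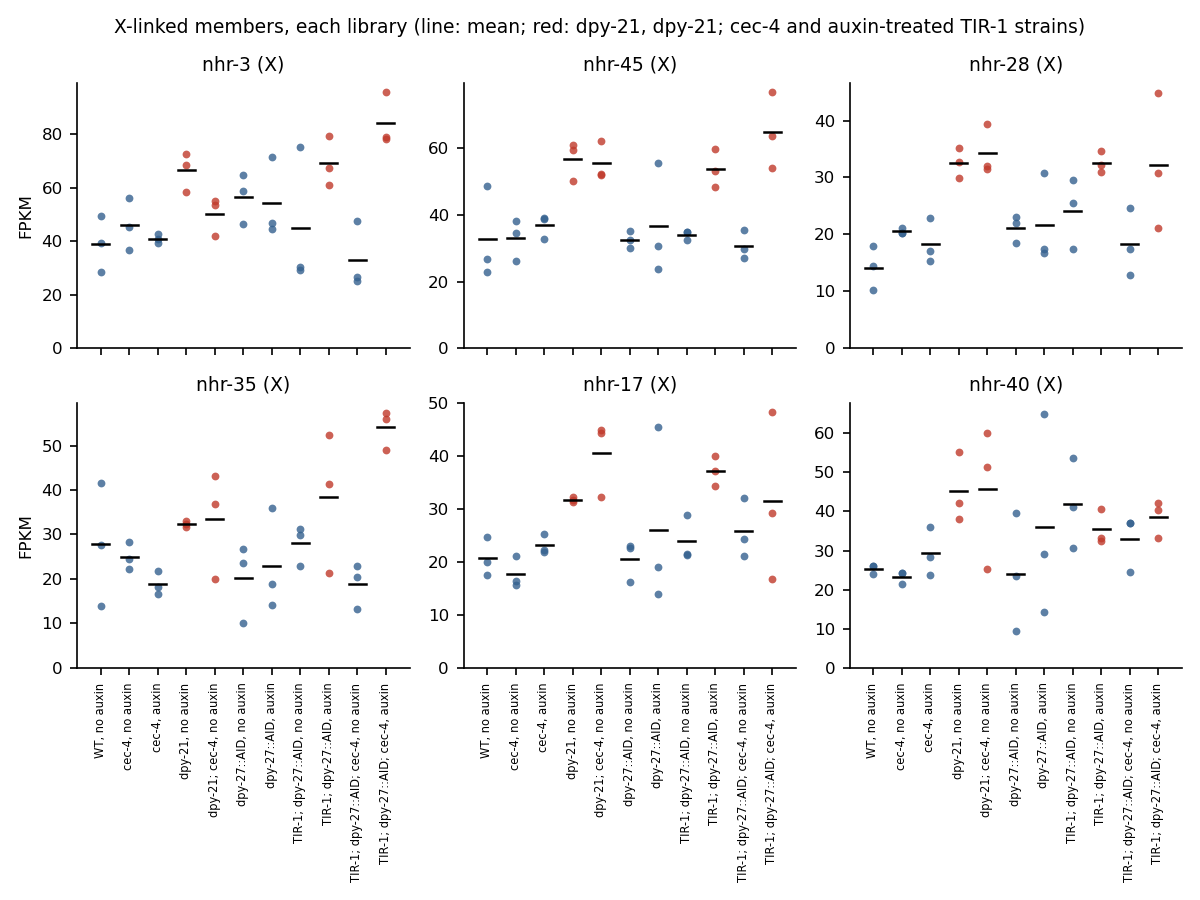
FPKM of 6 X-linked receptors in each of the 33 libraries, grouped by condition, with condition means as lines. Conditions lacking DPY-21 or treated with auxin in a TIR-1 strain are in red. The 3 treated TIR-1; dpy-27::AID; cec-4 libraries of nhr-3 lie at 78.4 to 95.7 FPKM, and nhr-28 is lowest in WT.

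The other X-linked members did not pass the test in any comparison with all 33 libraries. The values of nhr-17 (X 12663837 to 12667854) were 44.3, 32.2 and 44.9 FPKM in dpy-21; cec-4 against 16.4, 15.7 and 21.2 in cec-4, without overlap, with a log2 fold change of 1.18 (adjusted p = 0.0668 by limma). Without dpy-27::AID replicate 3 with auxin nhr-17 passed there (0.0179), in dpy-21; cec-4 against WT (0.96, 0.037) and in TIR-1; dpy-27::AID against dpy-27::AID, both with auxin. With auxin in TIR-1; dpy-27::AID; cec-4 the same gene was spread from 16.7 to 48.3 FPKM, which spanned the untreated libraries. The muscle receptor nhr-40 (X 2594003 to 2606732) was 55.2, 38.1 and 42.2 FPKM in dpy-21 against 24.0, 26.1 and 26.0 in WT, without overlap (log2 0.81). Auxin went with no such difference in nhr-40, where the log2 fold change was -0.21 in TIR-1; dpy-27::AID and 0.25 in TIR-1; dpy-27::AID; cec-4.

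A further 3 genes differed between depletion in the presence and in the absence of cec-4 in sign but were called in neither. For nhr-173 (X 6655528 to 6660376) the log2 fold change with auxin was -0.28 in TIR-1; dpy-27::AID and 0.98 in TIR-1; dpy-27::AID; cec-4. For nhr-120 (X 6636561 to 6640620) the values were -0.18 and 0.71, and for the HNF4 relative nhr-14 (X 8473722 to 8476178) they were -0.30 and 0.57. None of these passed the interaction test. The libraries of nhr-173 were 15.3, 16.9 and 12.9 FPKM without auxin and 20.3, 36.9 and 34.8 with it in the cec-4 strain, and 23.2, 26.0 and 22.1 against 16.6, 21.02 and 21.1 in the other. The groups overlapped in neither strain, and the order of treated and untreated libraries was opposite. The neighbour of nhr-173, nhr-137, starts 1396 bases after it ends, and its fold changes were 0.25 and 0.26.

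Of the remaining X-linked members, nhr-32 (X 13251964 to 13256284) had log2 fold changes of 0.79 in dpy-21 and 0.71 in dpy-21; cec-4 against WT, and 0.71 with auxin in TIR-1; dpy-27::AID; cec-4. The relative of vertebrate GCNF, nhr-91 (X 15309369 to 15314899, 6 transcripts), was at 0 in 8 libraries. It was listed at 0, 5.70 and 0 FPKM in TIR-1; dpy-27::AID without auxin and at 102, 55.6 and 59.9 with it, but at 38.1, 0 and 24.1 without auxin and 0, 0 and 17.6 with it in the cec-4 strain. Because these values turn on zeros, its fold change is not given. The developmental receptor nhr-1 was at 0 in 17 libraries, the vitamin D receptor relative nhr-48 in 12, and nhr-167 in 2, with means of 6.38, 2.90 and 3.06 FPKM.

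Among the autosomal receptors called, nhr-155 (V 539460 to 541485) had the largest log2 fold change. Some members that were listed at 0 in part of the libraries and were not called spread further over the conditions. It was 37.1, 30.9 and 25.6 FPKM in TIR-1; dpy-27::AID with auxin and 3.86, 0.445 and 0.192 in dpy-27::AID with auxin. Every treated TIR-1; dpy-27::AID library was above all 30 other libraries, the highest of which was 20.2 FPKM in TIR-1; dpy-27::AID; cec-4 without auxin. The log2 fold change was 5.17 ± 0.99 (SE, adjusted p = 0.00723 by limma). The call held with any 1 of the 33 libraries left out (0.00288 to 0.0494) and was lost when only these 6 libraries were fitted (0.135). Against the untreated libraries of its own strain, 8.57, 7.58 and 1.35 FPKM, the log2 fold change was 2.76 and not called (0.233). With auxin in TIR-1; dpy-27::AID; cec-4 the gene was 8.24, 1.16 and 3.95 FPKM, against 19.4, 20.2 and 7.67 without.

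Its neighbour on V, nhr-132 (V 534446 to 536247), fell with auxin in TIR-1; dpy-27::AID; cec-4. It was 18.5, 17.2 and 14.8 FPKM without auxin, 3.68, 6.81 and 12.6 with it, and 22.1, 18.5 and 18.5 in TIR-1; dpy-27::AID with auxin. The treated cec-4 libraries were below all 6 others. The log2 fold changes were -1.28 ± 0.38 (SE) against no auxin (adjusted p = 0.0404 by limma) and -1.51 ± 0.38 against TIR-1; dpy-27::AID (0.0314). Each call was lost without treated replicate 1 or 2 of the cec-4 strain or any library of the other group (0.0805 to 0.213 and 0.0581 to 0.141), and without treated replicate 1 the first fold change was -0.85. Both calls were also lost when only the libraries compared were fitted (0.186 and 0.208).

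A second pair of neighbours, nhr-113 (I 11473218 to 11475662) and nhr-245 (I 11477744 to 11480071), fell in the same larvae. The levels of nhr-113 were 33.1, 34.1 and 23.1 FPKM without auxin and 3.90, 16.4 and 12.5 with it, and those of nhr-245 were 10.998, 19.8 and 11.6 without and 0.738, 0 and 8.53 with it. Neither gene's groups overlapped. The log2 fold changes were -1.66 ± 0.50 (SE, adjusted p = 0.0445 by limma) and -3.93 ± 1.202 (0.0486). With functional cec-4 and auxin nhr-245 was 33.6, 11.9 and 19.2 FPKM, from which the cec-4 strain differed by -4.47 ± 1.202 (0.0467). These calls lay close to the threshold. They were lost in 14, 26 and 21 of the 33 fits that left out 1 library. For nhr-113 these included any untreated library and treated replicates 1 and 3, with adjusted p up to 0.240 without treated replicate 1. For nhr-245 they included treated replicates 1 and 2 and any library of the other group, with 0.292 and 0.268 without treated replicate 2. The fold changes moved as well, nhr-113 to -1.04 without treated replicate 1 and nhr-245 to -2.35 and -2.88 without treated replicate 2. That library lists nhr-245 at 0, and both calls of nhr-245 were lost with a pseudocount of 0.01 (0.086 and 0.0915). When only the libraries compared were fitted, the call of nhr-113 (0.158) and both of nhr-245 (0.221 and 0.271) were lost.

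Of the 4 members that fell, nhr-105 (IV 7050156 to 7053450) had the highest level without auxin. It was 44.3, 36.5 and 30.2 FPKM without auxin and 18.0, 5.95 and 15.1 with it, without overlap. Its log2 fold change was -1.63 ± 0.40 (SE, adjusted p = 0.0159 by limma). The call was lost without untreated replicates 1 (0.0708) or 2 (0.0523) or treated replicate 2 (0.111), and when only the libraries compared were fitted (0.104).

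Markers of the moult, the hypodermis, the germline, the pharynx and the intestine moved with these changes. The summed level of 15 moulting and cuticle genes was 3862 to 5122 FPKM in TIR-1; dpy-27::AID; cec-4 without auxin and 880 to 1749 with it, and that of the hypodermis markers was 1116 to 1331 and 250 to 566. Moulting sums also differed inside conditions, such as 3812, 739 and 1253 FPKM in TIR-1; dpy-27::AID without auxin and 7252, 6463 and 2362 in dpy-27::AID without auxin. Moulting genes oscillate within each larval stage. Intestinal markers were 1715 to 1979 FPKM without auxin and 2047 to 2309 with it in TIR-1; dpy-27::AID; cec-4. Germline markers were 166 to 217 FPKM without and 84.2 to 137 with auxin there, and pharynx markers 133 to 224 and 301 to 393. Of these sums, those of moulting, hypodermis and pharynx also lay apart from the 3162 to 6133, 656 to 1424 and 150.5 to 285 FPKM of TIR-1; dpy-27::AID with auxin. Some markers are X-linked, among them myo-2 of the pharynx list, elt-2 and pept-1 of the intestine list and dpy-7. All X-linked genes tested had a median log2 fold change of 0.67 with auxin in TIR-1; dpy-27::AID; cec-4. Because the hypodermis and moult lists share dpy-7 and rol-6, their sums are not separate readings. Of the moult list, mlt-11 was at 0 in all 33 libraries and bli-1 was at most 0.836 FPKM. The largest medians of that list were those of rol-6 and sqt-1 (595 and 586 FPKM). In the intestine list the largest was act-5 (1617 FPKM), with ifb-2 at 0 in 31 libraries, and in the germline list glh-1 (95.1 FPKM). The part of larval phase or tissue in the levels of receptors, and that of X linkage in the marker sums, was not tested.

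Sterol and xenobiotic receptor nhr-8 (IV 7710983 to 7714210) was the metabolic receptor that passed the test. It was 41.5, 35.6 and 41.7 FPKM in TIR-1; dpy-27::AID; cec-4 with auxin and 16.04, 19.9 and 20.8 in TIR-1; dpy-27::AID with auxin, without overlap. The log2 fold change was 1.07 ± 0.26 (SE, adjusted p = 0.0286 by limma). The call was lost without replicate 1 or 2 of the low group or any library of the high group (0.0596 to 0.161), and when libraries were scaled to equal FPKM sums (0.068). It was also lost when only the libraries compared were fitted (0.0541). In WT nhr-8 was 21.3, 45.1 and 38.5 FPKM, so the low group was below all WT libraries and the high group within their range.

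**Figure D5:**
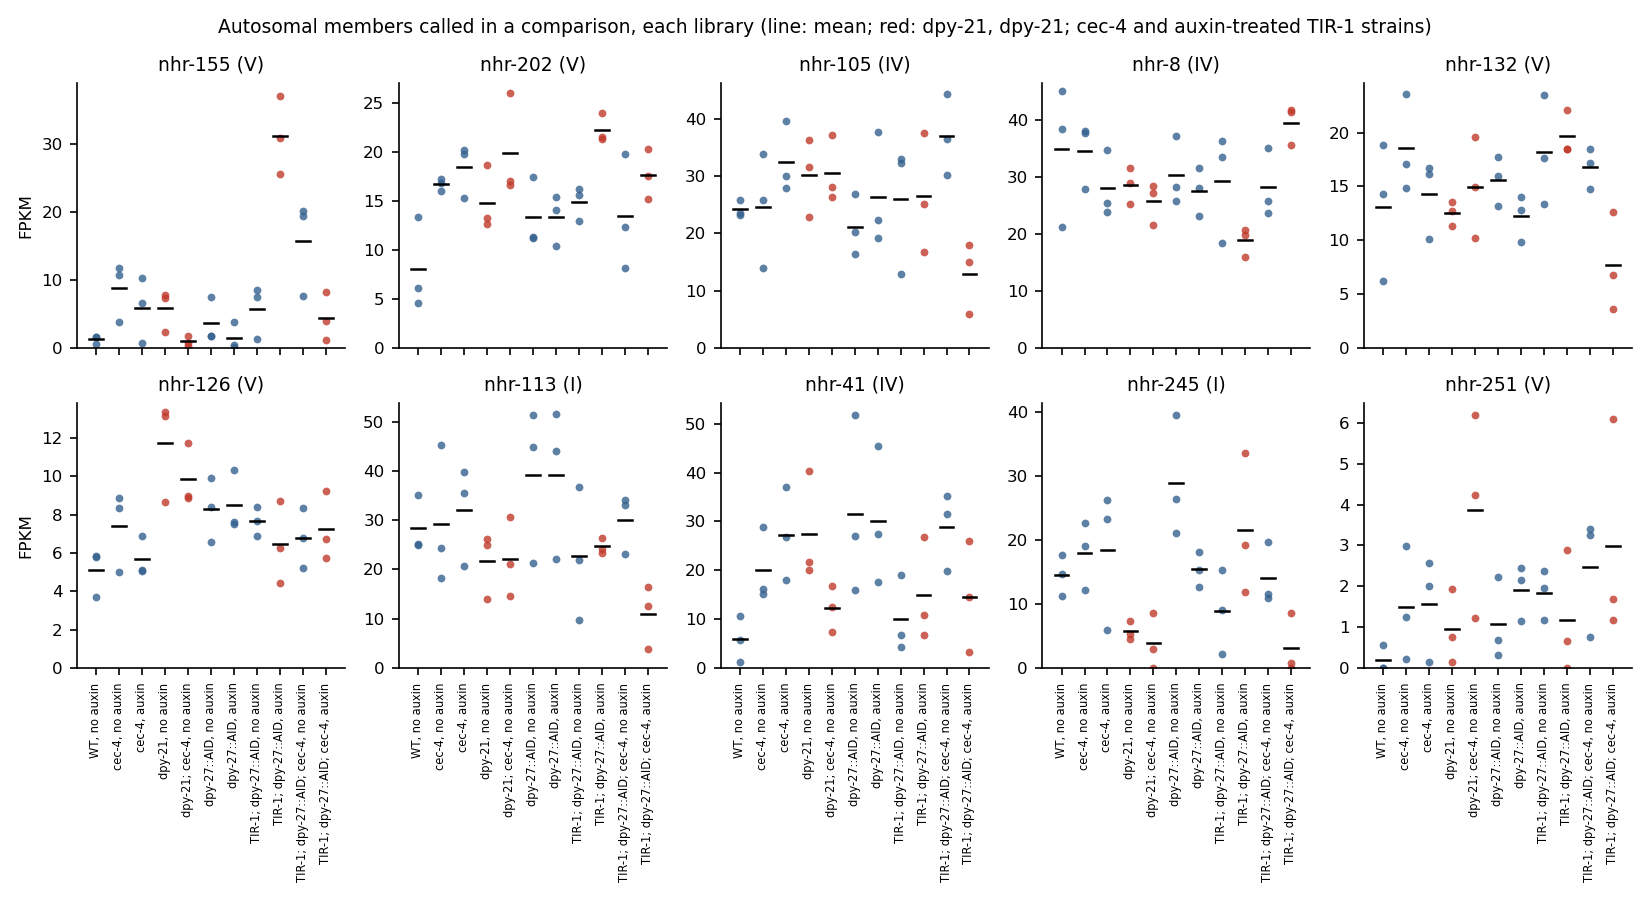
FPKM of the 10 autosomal receptors that passed the test in at least 1 comparison, in each of the 33 libraries grouped by condition, with condition means as lines. For nhr-155 the 3 libraries of TIR-1; dpy-27::AID with auxin, 25.6 to 37.1 FPKM, are above all others, and nhr-105, nhr-113, nhr-132 and nhr-245 are low in TIR-1; dpy-27::AID; cec-4 with auxin, nhr-245 also in the strains with the dpy-21 allele.

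Another 4 autosomal receptors rose against WT. The receptor nhr-126 (V 2229081 to 2230984), inside a chain of 9 members, was 8.65, 13.2 and 13.4 FPKM in dpy-21 against 5.76, 5.85 and 3.69 in WT (log2 1.19 ± 0.32 SE, adjusted p = 0.0393 by limma). The relative of vertebrate TR2 and TR4, nhr-41 (IV 1386215 to 1399353), was 21.8, 40.4 and 20.0 FPKM in dpy-21 against 1.23, 5.70 and 10.6 in WT (log2 2.58 ± 0.72, adjusted p = 0.0446). In dpy-21; cec-4, nhr-41 was 7.32, 16.8 and 12.5 FPKM, which overlapped WT. Its highest condition mean, 31.6 FPKM, was in dpy-27::AID without auxin, above the 27.4 of dpy-21.

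The other 2 were called in dpy-21; cec-4. In the longest chain on V, nhr-202 (V 462588 to 464963) was 25.9, 16.99 and 16.7 FPKM against 4.64, 6.13 and 13.3 in WT (log2 1.41 ± 0.32 SE, adjusted p = 0.0151 by limma). Near it, nhr-251 (V 600531 to 602469) was 4.23, 1.22 and 6.19 FPKM against 0.552, 0 and 0 in WT (adjusted p = 0.0475). In the comparison where each of these 4 genes was called, mutant and WT libraries did not overlap. The calls of nhr-126, nhr-41, nhr-202 and nhr-251 were each lost without WT replicate 1 (0.0504 to 0.276). That of nhr-126 was also lost without WT replicate 3 or dpy-21 replicates 2 or 3 (0.0651 to 0.157), and that of nhr-202 without dpy-21; cec-4 replicate 1 (0.0813). The calls of nhr-41 and nhr-251 were lost in 16 and 20 of the 33 fits that left out 1 library, any library of the mutant group among them. With the replicate number as a block, nhr-41 (0.0515) and nhr-251 (0.0588) missed the threshold. With the pseudocount set to 1, nhr-251 missed it (0.0694). All 4 calls were lost when only the libraries compared were fitted (0.215 to 0.362). Without WT replicates 1 and 2, the log2 fold changes of nhr-41 and nhr-202 were 1.29 and 0.54 and neither was called.

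All 11 metabolic receptors were tested, and nhr-8 was the only member of that list called in any comparison. The abundant nhr-31 stayed between 47.3 and 98.0 FPKM over all 33 libraries. The propionate shunt regulator nhr-68 was 116, 96.7 and 118 FPKM in TIR-1; dpy-27::AID; cec-4 without auxin and 30.7, 76.7 and 80.1 with it, without overlap, at a log2 fold change of -0.93 ± 0.32 (SE) that was not called (adjusted p = 0.078 by limma). Its partner nhr-10 had a log2 fold change of -0.16 there. For nhr-114 the libraries were 65.4, 49.5 and 83.2 FPKM without auxin and 38.4, 53.9 and 34.5 with it, which overlap (log2 -0.64, adjusted p = 0.44).

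The low members' sum of WT replicates 1 and 2 was visible in the same receptors. In WT nhr-114 was 21.6, 20.9 and 112 FPKM, nhr-68 was 44.8, 55.3 and 94.96 and nhr-10 was 9.13, 25.03 and 45.9. For each gene replicate 3 was the highest of the 3. In nhr-31, at 65.8, 92.5 and 97.8 FPKM, replicate 1 was also the lowest and replicate 3 the highest, with replicate 2 near replicate 3.

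Of the 15 receptors with counterparts outside nematodes 13 were tested, and nhr-41 and nhr-8 were called as above. The heterochronic gene nhr-85 ran from 10.997 to 33.7 FPKM, nhr-119 from 8.81 to 25.7, the HNF4 relative nhr-69 from 26.3 to 49.1, and the spermatheca receptor nhr-6 from 0 to 22.9. The remaining 2 were under the minimum, nhr-239 with a mean of 0.560 FPKM and nhr-111, above 0 in 1 library only. Of the 9 developmental receptors 8 were tested and 0 were called in any comparison by limma. The anchor cell receptor nhr-67 ran from 0.101 to 11.1 FPKM and nhr-43 from 2.37 to 34.5, and nhr-2, with a mean of 0.0611 FPKM, was not tested.

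Genes that act with the receptors or under them were called most often after auxin in the cec-4 background. The pathway lists held 39 genes, of which 31 were tested. With auxin against none in TIR-1; dpy-27::AID; cec-4, 8 of the 31 passed the test, 1 higher and 7 lower, beside 6.4% of all genes tested. The median log2 fold change of the 31 was -0.65, against -0.05 over all genes.

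Both enzymes of the propionate shunt that passed, ech-6 and hach-1, fell. The hydratase gene ech-6 was 993.8, 926 and 1484 FPKM without auxin and 269.1, 404.6 and 399.1 with it (log2 -1.66, adjusted p = 0.013 by limma), and the hydrolase gene hach-1 was 292, 272 and 369 without and 67.6, 106 and 104 with it (-1.77, 0.0158). Treated and untreated libraries were well apart for both. Each call was lost without untreated replicate 3 or treated replicate 1 (0.0564 to 0.0723). The acyl-CoA dehydrogenase gene acdh-1, the first enzyme of the shunt, was 1244, 1159 and 1970 FPKM without auxin and 57.0, 467 and 493 with it and missed the threshold (-2.58, 0.0563). The median of the 5 tested shunt genes was -1.77.

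In the methionine cycle the synthase gene metr-1 and its reductase gene mtrr-1 fell and the S-adenosylmethionine synthetase gene sams-1, which is X-linked, rose. Without auxin metr-1 was 251.5, 251.03 and 165.2 FPKM and with auxin 82.0, 109 and 103 (log2 -1.16, adjusted p = 0.00793 by limma), and mtrr-1 went from 133.8, 119.2 and 115.4 to 34.8, 50.2 and 44.5 (-1.52, 0.00434). The X-linked gene sams-1 was 780.1, 834.3 and 596.3 FPKM without auxin and 1392, 1397 and 1337 with it (0.91, 0.0061). It was 2304, 2138 and 2247 FPKM in TIR-1; dpy-27::AID with auxin, and rose there against dpy-27::AID with auxin (1.18, 0.00189), against no auxin (1.04, 0.0176) and in dpy-21; cec-4 against cec-4 (0.92, 0.015). The calls of metr-1, mtrr-1 and sams-1 in TIR-1; dpy-27::AID; cec-4, and that of sams-1 against dpy-27::AID, held with any 1 library left out. That of sams-1 against no auxin was lost without untreated replicate 2 or treated replicates 1 or 2 (0.0622 to 0.106), and that against cec-4 without cec-4 replicates 1 or 2 or dpy-21; cec-4 replicates 2 or 3 (0.0561 to 0.0747).

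On the sterol side, strm-1, a methyltransferase that diverts sterols from dafachronic acid synthesis, fell in TIR-1; dpy-27::AID; cec-4. It was 35.4, 33.8 and 27.99 FPKM without auxin and 8.57, 10.9 and 8.14 with it (log2 -1.81, adjusted p = 0.0027 by limma). With functional cec-4 and auxin it was 26.5, 40.6 and 28.02 FPKM, from which the cec-4 strain differed by -1.76 (0.00602). The interaction of auxin with cec-4 was -2.44 (0.00874), so this was the gene of the 31 for which the response differed between the strains by a test. All 3 calls held with any 1 library left out. The P450 reductase gene emb-8 went from 116, 123 and 102 to 65.0, 54.9 and 70.5 FPKM (-0.85, 0.00537), and also held.

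Of the 8 tested lipid genes under nhr-49, nhr-80 or nhr-66, the acyl-CoA synthetase gene acs-2 fell from 92.9, 106 and 57.9 to 2.43, 25.3 and 8.16 FPKM in TIR-1; dpy-27::AID; cec-4 (log2 -3.36, adjusted p = 0.013 by limma). The call was lost without untreated replicate 2 (0.0547) or treated replicate 1 (0.0808). The dehydrogenase gene hacd-1 was lower in dpy-21; cec-4 than in WT (-2.25, 0.0135), and that call was lost without dpy-21; cec-4 replicates 2 (0.0557) or 3 (0.0661). The receptors under which these genes are known to act, nhr-49 and nhr-80, were listed at 0 in too many libraries to be set beside them. Among coregulators, cbp-1 ran from 10.95 to 39.5 FPKM, and mdt-15 and din-1 were listed at 0 in most libraries.

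Nuclear receptors without an nhr number were not called with auxin in TIR-1; dpy-27::AID; cec-4. The dafachronic acid receptor gene daf-12, on X, had a log2 fold change of 0.60 (adjusted p = 0.406 by limma) and the X signal element gene sex-1, also on X, 0.64 (0.268). The moulting receptor nhr-25, which the rule set aside and which is X-linked, rose in dpy-21; cec-4 against WT (1.30, 0.0298) and against cec-4 (1.28, 0.0483). The first of these calls was lost without WT replicates 1 or 2 or dpy-21; cec-4 replicates 2 or 3 (0.0665 to 0.146). The second was lost in 24 of the 33 fits that left out 1 library, at most at 0.232 without cec-4 replicate 2, where the fold change was 0.77. It was also lost without a filter (0.0742), with equal FPKM sums (0.105) and with the replicate block (0.0611). When only the conditions compared were fitted, both calls of nhr-25 (0.208 and 0.36), those of sams-1 against no auxin in TIR-1; dpy-27::AID (0.263) and against cec-4 (0.117), that of hacd-1 (0.108) and that of acs-2 (0.0856) were lost.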

How the data were processed

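The samples were 33 poly(A) libraries of whole L3 hermaphrodites, 3 for each of 11 conditions, grouped from the sample labels. The authors used a directional kit and the submitters' processing notes name cutadapt 2.3, FastQC 0.11.8, Salmon 1.9.0 and DESeq2 1.42.0, with build WBcel235. The deposited values were FPKM per gene, and how the authors computed them from transcript estimates is not given in the sources used here. Median-of-ratios factors of the deposited FPKM were equal in all 33 libraries, so these values were already scaled between libraries. All 21975 gene IDs were matched to Ensembl release 115 of the same build, from which symbols and coordinates came. No protein or nucleotide sequence was used here. Because counts were not used here, the count test of the study was replaced by limma.

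Genes with a mean of at least 1 FPKM were tested on log2(FPKM + 0.1) with limma 3.58.1 in R 4.3.3, with 11 condition means, a trend in the prior variance and Benjamini-Hochberg adjustment over 13309 genes (2061 X-linked, 11236 autosomal). A fold change on this scale understates the change of low genes. Each SE is from this fit, and each SD is over 3 libraries. Figures and tables were made with Python 3.11.15. The test was checked on simulated data.

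The members and lists were chosen with earlier results of these data known. The rule for named members was every member called in any of the 14 comparisons or 2 interactions, the 10 most abundant, every tested X-linked member and the members of 3 role lists, with the pathway lists beside them. X-linked and autosomal members were compared by counts and medians only. Alternatives were other pseudocounts (1 and 0.01), filters (none and 5 FPKM), scalings, a replicate block, fits of only the conditions compared, and each of the 33 libraries left out.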

Additional observations from a re-analysis of the deposited data

Results flagged for a closer look

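The response of strm-1 to auxin differed between the TIR-1 strains, falling in TIR-1; dpy-27::AID; cec-4 and not called in TIR-1; dpy-27::AID, with an interaction of -2.44 on the log2 scale (adjusted p = 0.00874 by limma). It was flagged because the difference itself passed the test.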

How the results depend on the processing

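Of the 17 calls of members, 16 were kept with a pseudocount of 1, 15 with 0.01, 11 without a filter, 11 with libraries scaled to equal FPKM sums, and 3 when only the conditions compared were fitted; at a minimum of 5 FPKM 16 remained testable and all 16 were kept. Over fits without 1 library 428 of 561 calls were kept, and the sign reversed in 0 cases of these settings. Most of those fits left out a library of neither group compared. Only 2 of the 17 calls, those of nhr-3 and nhr-155, were kept in every such fit. Median-of-ratios scaling gave the same factor in all 33 libraries and so could not move a call. Scaling to equal sums and leaving out WT replicates 1 and 2 together were chosen after the data were seen. Equal sums moved the median of all genes by 0.306 to 0.366 in the comparisons with WT and by -0.0594 to 0.0207 in the others, and moved X-linked and autosomal members alike. Zeros in genes with many transcripts and 3 libraries a condition limit all of these values. The cause of each change was not tested.

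Beside each count of members called, the share of all genes called in the same fit is given in parentheses. With equal sums there were 6 in dpy-21 (5.79%), 7 in dpy-21; cec-4 (6.63%), 4 in dpy-27::AID (5.21%) and 2 in TIR-1; dpy-27::AID; cec-4 against WT (4.62%), 4 with auxin in TIR-1; dpy-27::AID; cec-4 (6.0004%) and 0 between both treated TIR-1 strains (1.97%). Fitting only the conditions compared gave 0 in dpy-21 (0.376%), 0 in dpy-21; cec-4 (0.496%), 1 in TIR-1; dpy-27::AID (0.203%) and 1 in TIR-1; dpy-27::AID; cec-4 against WT (0.293%), 4 with auxin in TIR-1; dpy-27::AID; cec-4 (5.78%), 0 against dpy-27::AID with auxin (0.571%) and 0 between both treated TIR-1 strains (1.34%). No filter gave 4 with auxin in TIR-1; dpy-27::AID; cec-4 (2.93%). A pseudocount of 1 gave 1 in TIR-1; dpy-27::AID; cec-4 against WT (1.56%) and 1 in the interaction of auxin with cec-4 (1.51%). A minimum of 5 FPKM gave 1 in TIR-1; dpy-27::AID; cec-4 (3.02%) and 5 in dpy-21; cec-4 against WT (6.04%). Without WT replicates 1 and 2 there were 1 in dpy-21 (2.33%), 0 in dpy-21; cec-4 (2.04%), 1 in dpy-27::AID against WT (1.36%) and 1 in the interaction of dpy-21 with cec-4 (0.864%).

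The X-linked minus autosomal difference of medians, without a filter, was 0.218 with auxin in TIR-1; dpy-27::AID (main value 0.476), 0.473 in TIR-1; dpy-27::AID; cec-4 (0.837), 0.0213 between both treated strains (0.122), 0.383 in dpy-21; cec-4 against cec-4 (0.617) and 0.298 in dpy-27::AID against WT (0.0632). At a minimum of 5 FPKM it was 0.244 between both treated strains. Without WT replicates 1 and 2 it was 0.870 in dpy-21, 0.721 in dpy-21; cec-4 and 0.243 in TIR-1; dpy-27::AID; cec-4 against WT.

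With any 1 library left out, this difference ran from 0.398 to 0.688 with auxin in TIR-1; dpy-27::AID, from 0.723 to 0.914 in TIR-1; dpy-27::AID; cec-4, from -0.0786 to 0.191 between both treated strains, from 0.476 to 0.918 against dpy-27::AID with auxin, from 0.617 to 0.805 in dpy-21; cec-4 against cec-4, from -0.0207 to 0.166 with auxin in cec-4, and, against WT, from 0.529 to 0.737 in dpy-21, from 0.394 to 0.636 in dpy-21; cec-4, from -0.321 to 0.0852 in cec-4, from -0.0266 to 0.215 in TIR-1; dpy-27::AID and from -0.154 to 0.151 in TIR-1; dpy-27::AID; cec-4. With auxin in dpy-27::AID it ran from -0.240 without treated replicate 3 to 0.405. Members called ran, against WT, from 0 to 12 in cec-4 (0.0827% to 10.05% of all genes), 0 to 14 in dpy-21 (0.488% to 12.3%), 0 to 16 in dpy-21; cec-4 (1.24% to 13.04%), 0 to 12 in dpy-27::AID (0.0225% to 10.9%), 0 to 9 in TIR-1; dpy-27::AID (0.0376% to 7.11%) and 0 to 9 in TIR-1; dpy-27::AID; cec-4 (0.293% to 10.6%), with the highest without WT replicate 3. They ran from 2 to 9 with auxin in TIR-1; dpy-27::AID; cec-4 (2.697% to 8.14%), 0 to 5 between both treated strains (0.526% to 3.22%), 1 to 3 against dpy-27::AID with auxin (0.428% to 2.28%), 0 to 1 with auxin in TIR-1; dpy-27::AID (0.0376% to 1.04%), 0 to 1 in dpy-27::AID (0% to 0.21%), 0 to 3 in dpy-21; cec-4 against cec-4 (0.391% to 2.34%), 0 to 2 in the interaction of auxin with cec-4 (0.473% to 2.404%) and 0 to 4 in that of dpy-21 with cec-4 (0.0376% to 3.27%).

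With the replicate number as a block, members called were 2 in dpy-21 (3.17%) and 3 in dpy-21; cec-4 against WT (3.94%), 1 against dpy-27::AID with auxin (1.01%), 7 with auxin in TIR-1; dpy-27::AID; cec-4 (5.75%) and 3 between both treated strains (2.13%). Deviations of same-numbered libraries from their condition means were little correlated: 2 of 42 correlations were over 0.1, and in 0 comparisons were all 3. These correlations gave no sign of pairing by number, but a weak shared effect would not be seen in them.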
